A study of Rattus norvegicus with 6 samples.

Results

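Cholesterol, fatty acid and sphingolipid synthesis was followed through 38 of the 32883 genes of a count table from rat oligodendrocyte precursor cells (OPCs), the dividing glial cells that give rise to oligodendrocytes. The 38 genes were taken by symbol from a list of enzymes and regulators, a rule that uses no measured value, although the list was drawn up with earlier results of these data known. The list held 18 enzymes of the sterol pathway, 3 sterol regulators, 10 enzymes of fatty acid synthesis, elongation and desaturation, and 7 enzymes of ceramide and galactolipid synthesis. All 38 were found in the table. A filter on low counts left 14670 genes for testing, and 37 of the 38 were among them.

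The cells came from cortices of Sprague Dawley rats at postnatal day 0. They were grown for 7 days in serum medium, shaken off and kept in serum-free medium. The DMSO group received the solvent, and the ZJU-37 group received 5 µM ZJU-37, an inhibitor of the kinase RIPK1, for 36 hours according to the sample labels. The study's figure legend for these data also gives 36 hours. Its methods give a shorter treatment, and which time holds for these libraries could not be settled. Each group held 3 libraries of poly-A RNA, and no genetic change was named for either group. The study's text describes the repeats both as biological repeats and as plate wells, so that p-values may measure technical spread alone. The libraries held 13935865 to 24097927 counts, and 3 counts corresponded to between 0.124 and 0.215 CPM, that is, counts scaled to the size of the library, a limit for counting error only. CPM values are given on the scale of edgeR's TMM normalization, always in the order of replicates 1, 2 and 3.

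Myelin is a membrane of unusual lipid make-up, and the cells that form it make much of that lipid themselves. Cholesterol is built from acetyl-CoA through mevalonate and squalene, and the transcription factors SREBP-1 and SREBP-2, encoded by Srebf1 and Srebf2, drive the genes of sterol and fatty acid synthesis. Ceramide is made from serine and a fatty acid, and oligodendrocytes turn ceramide with very long or hydroxylated chains into galactosylceramide and its sulfated form, sulfatide, which are hallmark lipids of myelin.

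Of the 37 tested genes, 2 rose and 5 fell with ZJU-37 in edgeR's quasi-likelihood test at an adjusted p-value under 0.05. Among all tested genes 9.43% rose and 5.58% fell. Fa2h, in the galactolipid branch, fell and no sphingolipid gene rose. Scd and Fads1, both fatty acid desaturases, rose and no fatty acid gene fell. Mvk, Mvd, Idi1 and Tm7sf2, in the sterol pathway, fell and no sterol gene rose. Whether the arms differed from one another was not tested.

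Libraries with the same replicate number deviated together from their group means, so each test was also run with the replicate number as a block. In that fit 6 of the 37 genes rose and 15 fell, against 16.2% and 15.9% of all tested genes. The ZJU-37 libraries lay wholly above the DMSO libraries for 5 of the 37 genes and wholly below them for 15, whereas 19.0% and 16.2% of all tested genes did so. The median log2 fold change was -0.18 over the 37 genes and -0.03 over all tested genes. As shares of the 37 genes, 5.41% rose and 13.5% fell without the block, and 16.2% rose and 40.5% fell with it. The share of risen genes was thus below that of all tested genes without the block and about equal to it with the block.

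**Figure D1:**
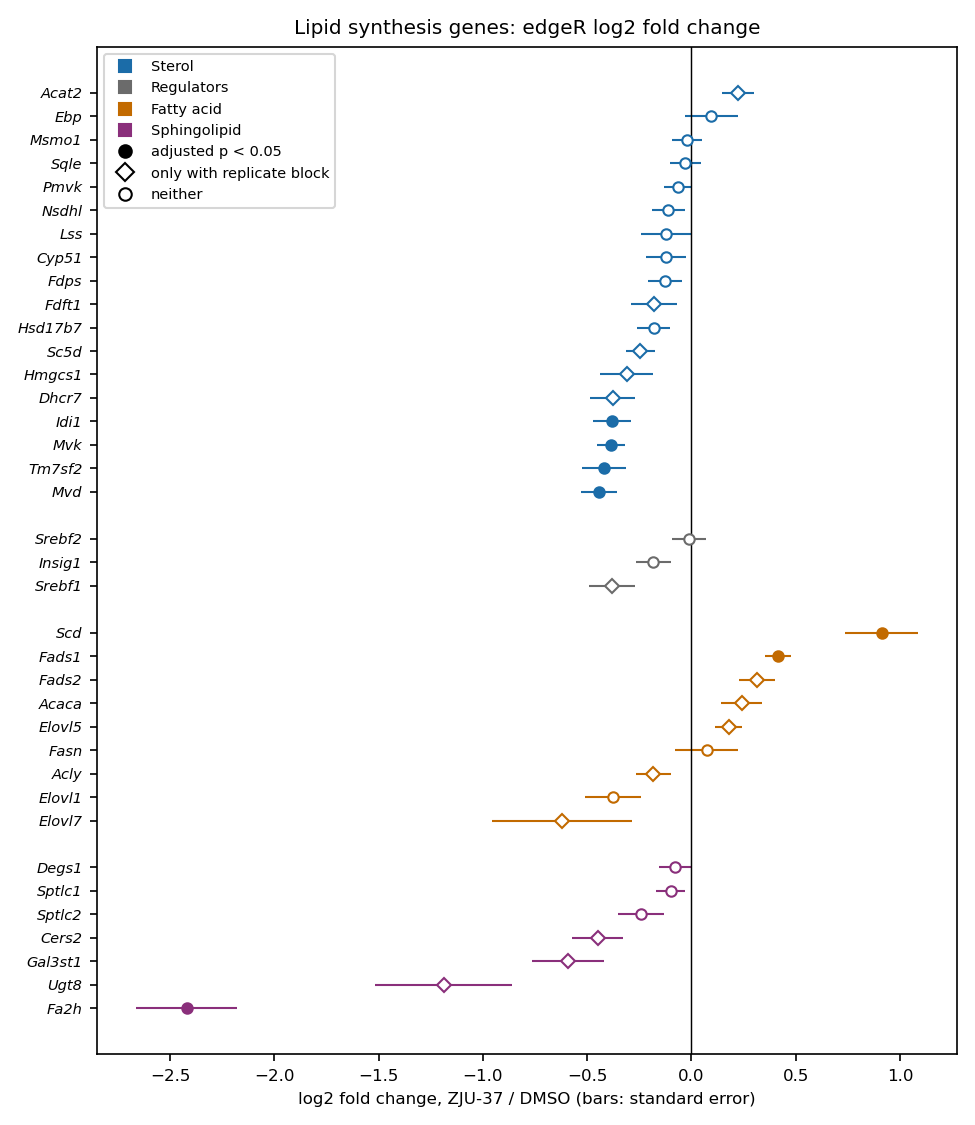
Log2 fold change of ZJU-37 over DMSO (x axis) for the 37 tested genes (y axis), grouped by arm and coloured by it. Bars are standard errors from edgeR, filled circles had an adjusted p-value under 0.05, open diamonds only with the replicate block, and open circles in neither fit. Fa2h lies farthest to the left at -2.42 and Scd farthest to the right at 0.91.

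The 7 sphingolipid genes were expressed at moderate levels. Their mean FPKM over the 6 libraries, a level per gene length and depth, ran from 17.8 for Sptlc1 to 105 for Ugt8. All 7 had a negative log2 fold change, with a median of -0.45. Their summed level was 1383, 1115 and 924 CPM with DMSO and 666, 776 and 571 CPM with ZJU-37, so that every ZJU-37 library lay below every DMSO library. Ugt8 had the largest mean in this sum, 521 CPM with DMSO and 229 CPM with ZJU-37. In these bulk samples fewer cells of a type and less RNA per cell cannot be told apart.

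Fa2h encodes the hydroxylase that gives myelin galactolipids their hydroxylated fatty acids. It had 83.9, 80.0 and 64.8 CPM with DMSO and 16.6, 17.0 and 9.30 CPM with ZJU-37. The groups lay far apart, with no ZJU-37 library above 17.0 CPM and no DMSO library below 64.8 CPM. Its mean fell from 76.2 ± 10.1 to 14.3 ± 4.33 CPM (SD, n = 3 libraries each), so that the DMSO level was 5.34 times the ZJU-37 level. The log2 fold change was -2.42 (SE 0.24), with an edgeR adjusted p of 0.00142, and it stayed under 0.05 when any library was left out. In the table's coordinates, whose build is not given in the sources used here, Fa2h lies on the minus strand of chromosome 19, 43545378 to 43596801.

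The promoters of the 7 genes called in edgeR are shown where each gene is described, because these are the members whose change passed the test. Each is the 250 bases before the RefSeq start in GRCr8, 5′ to 3′ on the strand of the gene, with the CCAAT box and its reverse ATTGG in capitals. The promoter of Fa2h, at chr19:56273481-56273730 on the minus strand, held 2 CCAAT boxes.
Fa2h: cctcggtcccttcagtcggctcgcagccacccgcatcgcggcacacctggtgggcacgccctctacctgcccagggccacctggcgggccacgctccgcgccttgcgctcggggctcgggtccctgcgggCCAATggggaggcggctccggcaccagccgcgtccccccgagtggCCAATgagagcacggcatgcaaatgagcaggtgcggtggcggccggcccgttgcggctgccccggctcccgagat

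Ugt8 encodes the ceramide galactosyltransferase that makes galactosylceramide. It had 714, 481 and 369 CPM with DMSO and 258, 284 and 144 CPM with ZJU-37. The groups did not overlap, but the DMSO libraries spread widely, from 369 to 714 CPM. The log2 fold change was -1.19 (SE 0.33), with an edgeR adjusted p of 0.0592 and of 0.0200 with the block. Ugt8 lies on the minus strand of chromosome 2, 229644382 to 229718659 in the table's coordinates.

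Gal3st1 encodes the sulfotransferase that turns galactosylceramide into sulfatide. It had 116, 99.4 and 75.4 CPM with DMSO and 65.1, 71.8 and 55.6 CPM with ZJU-37. Here too the groups did not overlap, although DMSO replicate 3 and ZJU-37 replicate 2 were close. The log2 fold change was -0.59 (SE 0.17), with an edgeR adjusted p of 0.0681 and of 0.000893 with the block. The 3 galactolipid genes therefore all fell with the block, and only Fa2h fell without it.

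The ceramide branch supplies the substrate. Cers2 encodes the ceramide synthase for very long chains and had 253, 253 and 218 CPM with DMSO and 154, 206 and 169 CPM with ZJU-37. Its groups did not overlap, and its log2 fold change was -0.45 (SE 0.12), with an edgeR adjusted p of 0.0522 and of 0.00456 with the block. The annotated span of Cers2 overlaps that of Setdb1 on the other strand, and its counts are uncertain to that extent because no strand-marking step was stated. Sptlc1 and Sptlc2 encode the subunits of serine palmitoyltransferase, the entry enzyme of the pathway. Sptlc1 had 60.2, 54.3 and 54.0 CPM with DMSO and 52.2, 54.6 and 50.5 CPM with ZJU-37, and its groups overlapped. Sptlc2 had 62.6, 62.1 and 59.0 CPM with DMSO and 43.3, 56.7 and 55.3 CPM with ZJU-37, with all ZJU-37 libraries below all DMSO libraries. Their log2 fold changes were -0.10 (SE 0.07) and -0.24 (SE 0.11), and neither passed the edgeR test in either fit. Degs1, the dihydroceramide desaturase, had a log2 fold change of -0.08 (SE 0.08) with overlapping groups.

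**Figure D2:**
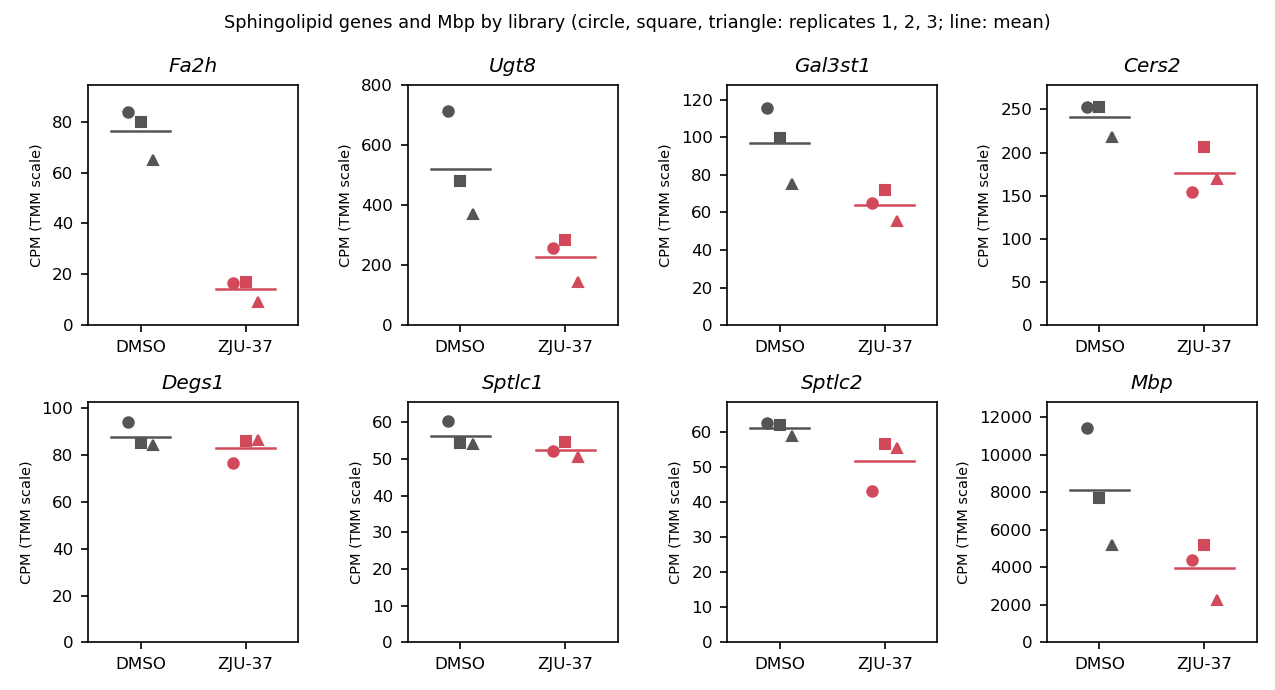
Level in CPM (y axes, starting at 0) of the 7 sphingolipid genes and of Mbp in each DMSO and ZJU-37 library. Symbols mark the replicate number and lines the group means. Fa2h is separated most widely, Sptlc1 and Degs1 overlap, and Ugt8, Fa2h, Gal3st1 and Sptlc1 repeat the order of the libraries seen for Mbp.

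Markers of differentiating oligodendrocytes moved in the same direction as the galactolipid genes. The 16 tested genes of a 17-gene oligodendrocyte list summed to 13654 to 25973 CPM with DMSO and to 5403 to 10830.3 CPM with ZJU-37. Of them 4 fell and none rose in edgeR, 10 fell with the block, and 15 had a negative log2 fold change. None of its 16 genes was at 0 in any library. Within each group, 5 of the 37 tested lipid genes had their libraries in the same order as Mbp, the gene of myelin basic protein, namely Ugt8, Fa2h, Gal3st1, Sptlc1 and Elovl7. The part of these cells in the galactolipid values was not tested.

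Relative to Mbp, Fa2h was the galactolipid gene whose groups did not overlap. Mbp had a log2 fold change of -1.03 and passed in neither fit. The 4 oligodendrocyte markers that fell in edgeR had log2 fold changes of -2.34 (Enpp6), -2.18 (Bcas1), -1.69 (Myrf) and -1.36 (Cnp). That of Fa2h was -2.42, and its ratios to these 4 markers were not tested. The ceramide genes Sptlc1 and Degs1 were also separated relative to Mbp, with higher ratios in the ZJU-37 libraries. Per 1000 CPM of Mbp, Fa2h had 7.35, 10.4 and 12.4 with DMSO and 3.76, 3.26 and 4.09 with ZJU-37. All ZJU-37 ratios lay below all DMSO ratios, with means of 10.1 ± 2.57 against 3.70 ± 0.416 (SD, n = 3) and a two-sided exact permutation p of 0.1, the smallest that 3 against 3 libraries allow. The same ratio of Ugt8 was 62.5, 62.5 and 70.9 with DMSO and 58.5, 54.5 and 63.4 with ZJU-37. Its groups overlapped by a narrow margin, and the means were 65.3 ± 4.85 against 58.8 ± 4.44 (SD, n = 3, exact permutation p = 0.3). The ratio of Gal3st1 was 10.1, 12.9 and 14.5 with DMSO and 14.8, 13.8 and 24.4 with ZJU-37, which overlapped between groups and was higher on average with ZJU-37 (exact permutation p = 0.2). In all 14 such ratios were tested, 7 genes against 2 references of which 1 is not reported here, and after Benjamini-Hochberg adjustment the exact permutation p was 0.3 for each. A design of 3 against 3 libraries cannot reach 0.05.

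**Figure D3:**
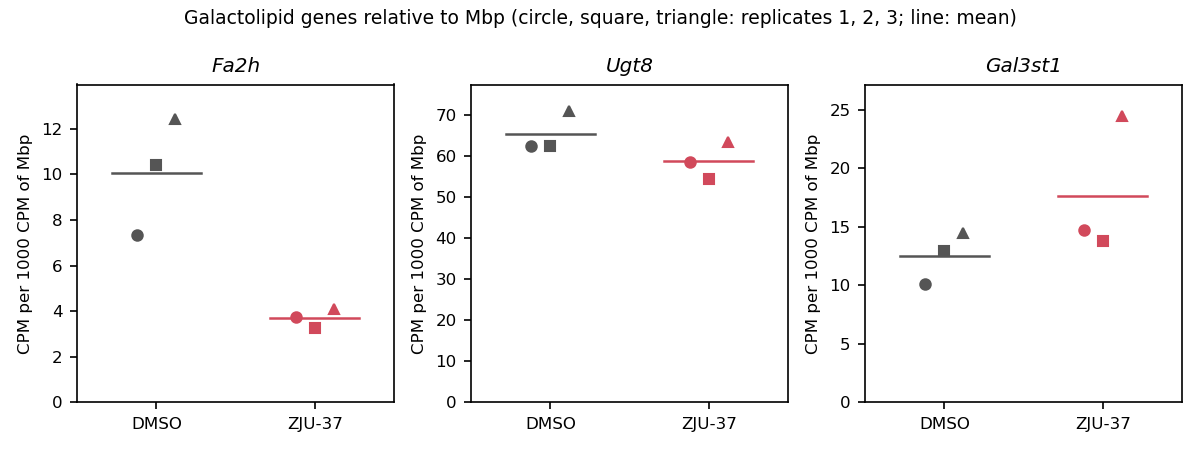
CPM of Fa2h, Ugt8 and Gal3st1 per 1000 CPM of Mbp (y axes, starting at 0) in each library, with symbols for the replicate number and lines for group means. The Fa2h ratio is lower in every ZJU-37 library, while the ratios of Ugt8 and Gal3st1 overlap between groups. Ratios to the oligodendrocyte markers that fell more than Mbp were not tested.

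A further 33 genes of sphingolipid metabolism that are no members were found, and 28 were tested. Of these 3 rose and 6 fell in edgeR, and 5 rose and 13 fell with the block. The median log2 fold change was -0.20. Among the risen genes, St8sia1, the ganglioside GD3 synthase, had 6.87, 5.37 and 6.95 CPM with DMSO and 24.5, 21.3 and 19.9 CPM with ZJU-37 and a log2 fold change of 1.78 (SE 0.15). Cers4, another ceramide synthase, went from 44.4 ± 2.43 to 90.1 ± 12.3 CPM (SD, n = 3), a log2 fold change of 1.02 that was opposite in sign to that of Cers2. Cerk, the ceramide kinase, had a log2 fold change of 0.40, and Ormdl3, a regulator of serine palmitoyltransferase, one of 0.23 that passed only with the block. Among the fallen genes, Sgms2 and Sgms1, the sphingomyelin synthases, had log2 fold changes of -0.99 and -0.44. Arsa, the lysosomal enzyme that removes the sulfate of sulfatide, had -0.52 on the same scale. Gltp, a glycolipid transfer protein, had -0.51 and fell only with the block. Sptlc3, Degs2, Cers1 and Cers3 were at 0 in at least 1 library.

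The fatty acid arm held 10 genes, of which 9 were tested. Mean FPKM ran from 9.88 for Elovl7 to 109 for Acly among those 9. Of them 2 rose and none fell in edgeR, and 5 rose and 2 fell with the block. The median log2 fold change was 0.18, with 6 positive and 3 negative values. The summed level was 2237, 1855 and 1899 CPM with DMSO and 2298, 1979 and 2007 CPM with ZJU-37, which overlapped.

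The 3 desaturases among the members were higher in every ZJU-37 library than in any DMSO library. This did not hold for Scd2, a further desaturase described below. Scd encodes a stearoyl-CoA desaturase, which makes monounsaturated fatty acids, and had 36.5, 23.9 and 36.5 CPM with DMSO and 62.9, 54.4 and 65.0 CPM with ZJU-37. All ZJU-37 libraries lay above all DMSO libraries, and DMSO replicate 2 was the lowest. The mean rose from 32.3 ± 7.29 to 60.7 ± 5.62 CPM (SD, n = 3 libraries each), a 1.88-fold level, with a log2 fold change of 0.91 (SE 0.17) and an edgeR adjusted p of 0.0161. Without ZJU-37 replicate 3 the adjusted p-value was 0.0550, and without replicate 1 of both groups it was 0.0841. Scd lies on the minus strand of chromosome 1, 264160129 to 264172729 in the table's coordinates. Its paralog Scd2, which is no member and was named after its values were seen, had 4474, 3105 and 3498 CPM with DMSO and 3427, 2767 and 2962 CPM with ZJU-37. Scd2 had a log2 fold change of -0.27 (SE 0.15), opposite in sign to Scd, with an edgeR adjusted p of 0.308 and of 0.00592 with the block. Reads of such close paralogs can be split by the counting, and both values are uncertain to that extent.

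Fads1 and Fads2 encode the front-end desaturases of polyunsaturated fatty acids. Fads1 had 176, 160.2 and 172 CPM with DMSO and 229.6, 217 and 231 CPM with ZJU-37. The groups were well separated and the spread within each was small, with a log2 fold change of 0.42 (SE 0.06) and an edgeR adjusted p of 0.00614. The call held when any library was left out. Fads2 had 118, 106 and 119.6 CPM with DMSO and 152, 129 and 145 CPM with ZJU-37, and its groups did not overlap. Its log2 fold change was 0.31 (SE 0.08), with an edgeR adjusted p of 0.0521 and of 0.00136 with the block.

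The promoters of the 2 risen desaturase genes lie at chr1:253231732-253231981 on the minus strand (Scd) and chr1:216252442-216252691 on the plus strand (Fads1) in GRCr8. Fads1 held 1 CCAAT box, in capitals, and Scd held none.
Scd: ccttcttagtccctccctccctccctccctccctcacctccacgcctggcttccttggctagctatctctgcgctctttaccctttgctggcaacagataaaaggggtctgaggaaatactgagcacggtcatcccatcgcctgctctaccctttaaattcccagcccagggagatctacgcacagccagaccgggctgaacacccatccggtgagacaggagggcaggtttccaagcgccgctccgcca
Fads1: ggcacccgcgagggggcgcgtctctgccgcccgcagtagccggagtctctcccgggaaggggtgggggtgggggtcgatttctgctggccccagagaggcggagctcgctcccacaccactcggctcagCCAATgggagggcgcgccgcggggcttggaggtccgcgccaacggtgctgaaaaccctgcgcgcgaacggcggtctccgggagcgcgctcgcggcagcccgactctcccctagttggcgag

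The enzymes that build the chain differed among themselves. Acaca encodes acetyl-CoA carboxylase, the committed step, and had 119.9, 102 and 103 CPM with DMSO and 141, 116 and 126 CPM with ZJU-37. Its groups overlapped, yet it was higher with ZJU-37 in every replicate pair, and it rose only with the block (log2 fold change 0.24, adjusted p-value 0.163 without and 0.00567 with it, edgeR). Acly encodes ATP citrate lyase, which supplies acetyl-CoA, and had 531, 489 and 491 CPM with DMSO and 487, 413 and 431 CPM with ZJU-37. It fell only with the block (log2 fold change -0.18, adjusted p-value 0.210 without and 0.0194 with it, edgeR). Fasn, the fatty acid synthase, had 976, 727 and 746 CPM with DMSO and 1002, 782 and 791 CPM with ZJU-37, with overlapping groups and replicate 1 the highest library of each. Its log2 fold change was 0.07 (SE 0.15), and the sign changed when DMSO replicate 2 or ZJU-37 replicate 1 was left out.

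The elongases also went both ways. Elovl5, which lengthens polyunsaturated chains, had 108, 95.6 and 102 CPM with DMSO and 118, 114 and 114 CPM with ZJU-37 and did not overlap between groups. It rose with the block alone (log2 fold change 0.18, adjusted p-value 0.116 without and 0.0282 with it, edgeR). Elovl7, an elongase of long saturated chains, had 13.9, 11.9 and 6.69 CPM with DMSO and 7.41, 8.92 and 4.71 CPM with ZJU-37, with overlapping groups and the order of libraries of Mbp. It fell with the block alone (log2 fold change -0.62, adjusted p-value 0.290 without and 0.00881 with it, edgeR). Elovl1, which makes very long saturated chains, had 158, 139 and 122 CPM with DMSO and 97.1, 126 and 99.4 CPM with ZJU-37 and overlapped between groups through ZJU-37 replicate 2. It passed in neither fit (log2 fold change -0.38, SE 0.13, adjusted p-value 0.119 without and 0.0542 with the block, edgeR). Elovl6 was the member that the low-count filter removed. It had 6, 5 and 10 counts with DMSO and 3, 384 and 6 counts with ZJU-37, so that ZJU-37 replicate 2 stood apart from the other 5 libraries.

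**Figure D4:**
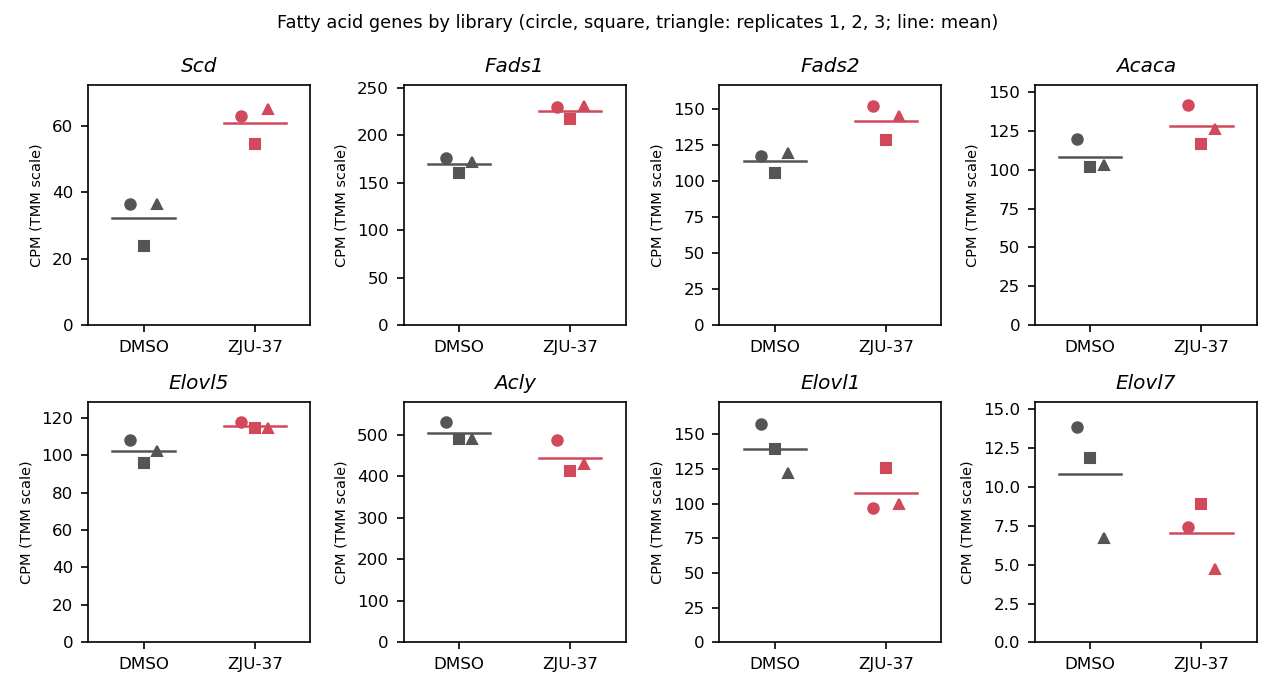
Level in CPM (y axes, starting at 0) of 8 fatty acid genes in each DMSO and ZJU-37 library, with symbols for the replicate number and lines for group means. The desaturases Scd, Fads1 and Fads2 and the elongase Elovl5 are higher in every ZJU-37 library, Acly is lower in every one, and the others overlap.

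Of 26 further genes of fatty acid metabolism that are no members, 25 were found and 22 were tested. In edgeR 2 rose and 3 fell, with the block 3 rose and 7 fell, and the median log2 fold change was -0.11. Acsl3, which activates long-chain fatty acids, had 406, 312 and 300.1 CPM with DMSO and 194, 169.5 and 146 CPM with ZJU-37 and fell with a log2 fold change of -0.996 (SE 0.15). Acsl1, of the same family, fell with -0.54, whereas Acsl5 had 0.33 and rose only with the block. Acsbg1, also an acyl-CoA synthetase, had -0.61 and fell only with the block. Slc25a1, the mitochondrial citrate carrier, fell with -0.34. Me1, a source of NADPH, and Fabp7, a fatty acid binding protein of glia and precursors, rose with 0.43 and 0.43. Scd4, Elovl3 and Thrsp were at 0 in at least 1 library.

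The sterol arm held 18 enzymes, all of them tested. Mean FPKM ran from 6.78 for Hsd17b7 to 269.7 for Hmgcs1. In edgeR 4 fell and none rose, and with the block 8 fell and 1 rose. The log2 fold change was negative for 16 of the 18 and the median was -0.15. Summed levels were 3904, 3157 and 3412 CPM with DMSO and 3144, 2937 and 3096 CPM with ZJU-37, which did not overlap, although DMSO replicate 2 lay close to ZJU-37 replicate 1. Hmgcs1 had the largest mean in this sum, 967 CPM with DMSO and 780 CPM with ZJU-37.

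DMSO replicate 1 stood above the other DMSO libraries in this arm, but not in this arm alone. It was the highest DMSO library for 16 of the 18 sterol enzymes and for 31 of the 37 tested members. The same held for 7 of 9 fatty acid and 6 of 7 sphingolipid genes. Among markers it was highest for 16 of 16 oligodendrocyte, 8 of 8 OPC and 9 of 9 neuron genes. For microglia this was 0 of 12 and for astrocytes 1 of 9. In the sterol arm the median log2 difference within replicate pairs was -0.29, -0.12 and -0.08 for pairs 1, 2 and 3. There 12 enzymes were lower with ZJU-37 in every pair. Without DMSO replicate 1 the median log2 fold change was -0.07, with 14 of 18 values negative, 3 enzymes fallen and 1 risen.

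The early steps to mevalonate and isoprenoids were carried by 8 enzymes, of which 3 fell in edgeR. Mvk, mevalonate kinase, had 57.6, 53.7 and 53.9 CPM with DMSO and 44.3, 40.9 and 41.2 CPM with ZJU-37. Its groups were separated and its pairs differed by nearly the same amount, with a log2 fold change of -0.39 (SE 0.07) and an edgeR adjusted p of 0.00995. Mvk lies on the minus strand of chromosome 12, 47904719 to 47919400 in the table's coordinates. Mvd, mevalonate diphosphate decarboxylase, had 94.1, 83.1 and 77.1 CPM with DMSO and 58.9, 62.3 and 65.7 CPM with ZJU-37. It did not overlap between groups either, with a log2 fold change of -0.44 (SE 0.09) and an edgeR adjusted p of 0.0179. Idi1, the isopentenyl diphosphate isomerase, had 199.6, 159.5 and 167 CPM with DMSO and 134, 137 and 133 CPM with ZJU-37. Its groups did not overlap, DMSO replicate 1 was the highest library and the ZJU-37 libraries were alike, with a log2 fold change of -0.38 (SE 0.09) and an edgeR adjusted p of 0.0361. The span of Idi1 overlaps that of Wdr37 on the other strand. Leaving out a library took the adjusted p-value above 0.05 for Mvk (without ZJU-37 replicate 3, 0.0608), Mvd (without DMSO replicate 2, 0.0591, or ZJU-37 replicate 2, 0.0510) and Idi1 (without DMSO replicate 3 or any ZJU-37 library, up to 0.117).

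Hmgcs1 and Acat2 open the pathway. Hmgcs1, the cytosolic HMG-CoA synthase, had 1119, 827 and 956 CPM with DMSO and 835, 711 and 793 CPM with ZJU-37. The groups overlapped, each replicate pair was lower with ZJU-37, and it fell only with the block (log2 fold change -0.31, adjusted p-value 0.158 without and 0.00264 with it, edgeR). Acat2, the cytosolic acetoacetyl-CoA thiolase, had 124, 104 and 112 CPM with DMSO and 136, 129.9 and 132 CPM with ZJU-37 and went the other way. It did not overlap between groups and rose only with the block (log2 fold change 0.22, adjusted p-value 0.0995 without and 0.0116 with it, edgeR). Fdft1, squalene synthase, had 261, 206 and 219 CPM with DMSO and 221, 185 and 200.1 CPM with ZJU-37, with overlapping groups, and fell only with the block (log2 fold change -0.18, adjusted p-value 0.349 without and 0.0243 with it, edgeR). Pmvk and Fdps, the phosphomevalonate kinase and the farnesyl diphosphate synthase, passed in neither fit, with log2 fold changes of -0.06 and -0.13.

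From squalene to cholesterol, 1 of 10 enzymes fell in edgeR and 3 fell with the block. Tm7sf2, a sterol reductase, had 43.6, 40.7 and 48.3 CPM with DMSO and 29.0, 35.4 and 34.7 CPM with ZJU-37. Its groups did not overlap, and its log2 fold change was -0.42 (SE 0.11), with an edgeR adjusted p of 0.0412. The call was lost whichever library was left out, with an edgeR adjusted p-value above 0.05 each time, reaching 0.125 without DMSO replicate 3. Its span overlaps that of Vps51 on the same strand, which held more counts in all, so its counts are uncertain. Sc5d, the lathosterol oxidase, had 168, 150.04 and 151 CPM with DMSO and 126, 136 and 134 CPM with ZJU-37, without overlap (log2 fold change -0.25, adjusted p-value 0.0590 without and 0.0160 with the block, edgeR). Dhcr7, which makes cholesterol in the last step of one route, had 176, 142 and 148 CPM with DMSO and 131, 107 and 119.9 CPM with ZJU-37, also without overlap (log2 fold change -0.38, adjusted p-value 0.0652 without and 0.000475 with the block, edgeR). Sqle, squalene epoxidase and a control point of the pathway, had 292, 257 and 262 CPM with DMSO and 277, 264 and 253 CPM with ZJU-37. Its groups overlapped and its log2 fold change was -0.03 (SE 0.07), a value so near 0 that its sign changed with the scaling. The other 6 enzymes, Lss, Cyp51, Msmo1, Nsdhl, Hsd17b7 and Ebp, had log2 fold changes between -0.18 for Hsd17b7 and 0.09 for Ebp, and none passed in either fit. The sign of Msmo1 (-0.02) also changed with the scaling. The span of Hsd17b7 overlaps that of a gene with 35 counts in all, and that of Fdps a gene with 119.

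The promoters of the 4 fallen sterol genes lie at chr12:47819504-47819753 (Mvk), chr19:67414975-67415224 (Mvd), chr17:66547525-66547774 (Idi1) and chr1:212789542-212789791 (Tm7sf2) in GRCr8, all on the minus strand. Each held at least 1 CCAAT box, shown in capitals in either direction, and Mvk held 5.
Mvk: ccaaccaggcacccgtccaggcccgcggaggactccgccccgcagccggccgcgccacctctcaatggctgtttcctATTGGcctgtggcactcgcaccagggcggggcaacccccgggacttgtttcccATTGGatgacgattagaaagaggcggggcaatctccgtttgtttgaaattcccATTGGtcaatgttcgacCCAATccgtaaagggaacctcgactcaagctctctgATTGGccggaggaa
Mvd: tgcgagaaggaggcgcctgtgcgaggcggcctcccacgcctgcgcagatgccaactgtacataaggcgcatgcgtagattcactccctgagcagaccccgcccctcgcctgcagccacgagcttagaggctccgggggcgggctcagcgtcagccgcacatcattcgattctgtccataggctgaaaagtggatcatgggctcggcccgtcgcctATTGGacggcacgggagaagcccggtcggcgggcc
Idi1: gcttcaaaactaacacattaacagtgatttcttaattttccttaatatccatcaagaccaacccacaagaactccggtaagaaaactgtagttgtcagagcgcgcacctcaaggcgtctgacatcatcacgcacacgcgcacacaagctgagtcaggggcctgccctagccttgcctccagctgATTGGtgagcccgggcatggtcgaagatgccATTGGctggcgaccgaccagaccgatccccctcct
Tm7sf2: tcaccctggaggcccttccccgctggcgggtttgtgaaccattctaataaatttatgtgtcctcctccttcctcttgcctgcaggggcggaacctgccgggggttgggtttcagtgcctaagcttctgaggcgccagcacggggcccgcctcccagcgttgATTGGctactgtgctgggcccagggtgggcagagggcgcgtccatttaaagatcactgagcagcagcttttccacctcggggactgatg

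**Figure D5:**
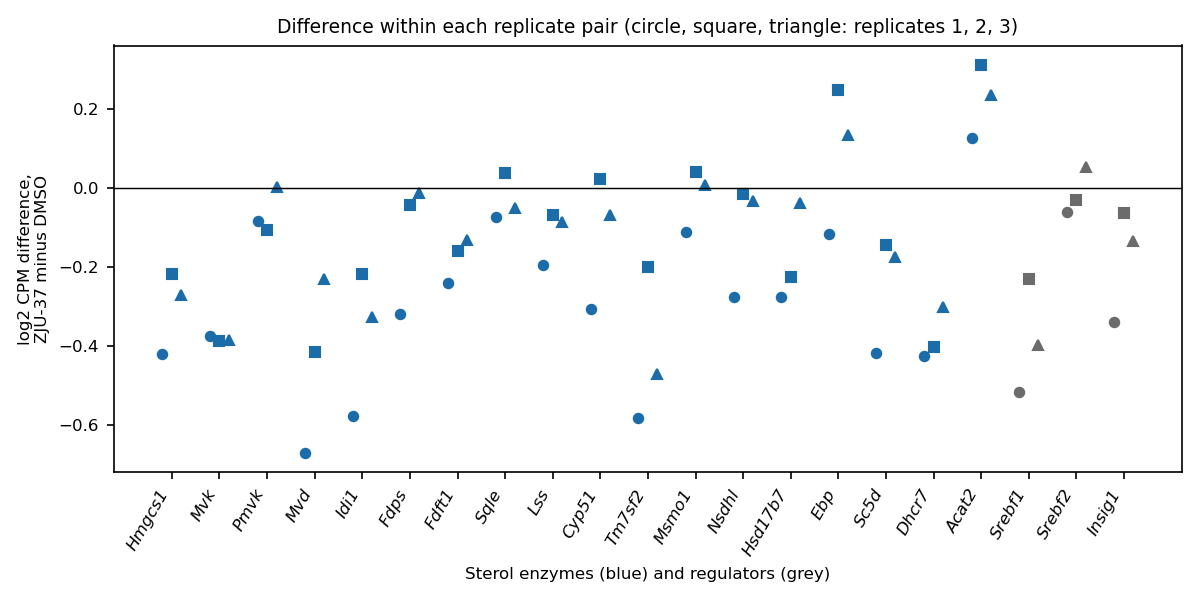
Log2 CPM difference of ZJU-37 minus DMSO (y axis) within replicate pairs 1, 2 and 3 (circle, square, triangle) for the 18 sterol enzymes (blue) and 3 regulators (grey). The circles of pair 1 are mostly the lowest, the 3 pairs of Mvk nearly coincide, and Acat2 lies above 0 in every pair.

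The regulators did not pass the edgeR test. Srebf1 had 93.4, 89.0 and 108 CPM with DMSO and 65.1, 75.7 and 81.6 CPM with ZJU-37. Its groups did not overlap, with a log2 fold change of -0.38 (SE 0.11) and an adjusted p-value of 0.0619, and it fell with the block (adjusted p-value 0.00167, edgeR). Its span overlaps that of Rai1 on the other strand. Srebf2 had 351, 305 and 309.9 CPM with DMSO and 336, 299 and 322 CPM with ZJU-37, with overlapping groups and a log2 fold change of -0.01 (SE 0.08) whose sign changed with the scaling. Insig1, which holds SREBP precursors in the endoplasmic reticulum, had 267, 218 and 236 CPM with DMSO and 211, 208 and 215 CPM with ZJU-37. Its ZJU-37 libraries lay just below its DMSO libraries, and its log2 fold change was -0.18 (SE 0.08, adjusted p-value 0.214 without and 0.0528 with the block, edgeR). A change in mRNA says nothing here of SREBP processing, which was not measured.

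Of 25 further genes of sterol metabolism that are no members, 24 were found and 23 were tested. In edgeR 1 rose and 2 fell, and with the block 1 rose and 9 fell. The median log2 fold change was -0.15. Stard4, a sterol transfer protein, had 32.1, 31.1 and 36.1 CPM with DMSO and 54.0, 48.8 and 49.2 CPM with ZJU-37 and rose with a log2 fold change of 0.61 (SE 0.08). Erg28, a scaffold of the sterol enzymes, fell with -0.38. Nr1h3, the oxysterol receptor LXR alpha, Apoe, a cholesterol carrier, and Abcg1, a cholesterol exporter, had log2 fold changes of -0.46, -0.38 and -0.34 and fell only with the block. Microglia, which also express these 3 genes, had 5 of 12 markers that fell with the block, and their part was not tested.

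Markers of other cell types were also measured. The 12 genes of a microglia list summed to 2548 to 4396 CPM with DMSO and 1843 to 3866 CPM with ZJU-37, where none was at 0, none passed in edgeR and 5 fell with the block. The astrocyte list summed to 1045 to 1679 and 931 to 1392 CPM, with 1 of 9 tested genes higher and 1 lower in edgeR, 2 higher and 4 lower with the block, and Gjb6 at 0 in at least 1 library. The neuron list of 9 genes summed to 741 to 966 and 642 to 861 CPM, with none passing in edgeR and 3 fallen with the block. The OPC list, which checks the labelled cell type, summed to 4041 to 4674 and 4465 to 6144 CPM, with 4 of 8 tested genes higher, 3 lower and none at 0. The part of these cells in the lipid genes was not tested.

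Promoters were matched by symbol for 32 of the 38 genes, and Acaca, Elovl6, Fasn, Fdft1, Pmvk and Sqle were not matched. Counted on both strands, CCAAT was present in 22 of the 32 matched promoters, or 68.8%, against 34.3% of all 27457 promoters of that length and 35.1% of those of tested genes. By arm it was in 12 of 15 sterol, 3 of 7 fatty acid and 4 of 7 sphingolipid promoters. The GC box GGGCGG was in 25 of 32, against 58.7% of tested genes, and it overlapped no CCAAT box in the 7 promoters shown. The E-box CACGTG was in 3 of 32 and in 7.96% of tested genes. The sterol regulatory element searched as TCACNCCAC was in none of the 32 and in 1.04% of tested genes, which says only that these letters are not in this window. CCAAT boxes were found in sterol promoters whether or not the gene was called, for example in Msmo1, Nsdhl and Hsd17b7 as well as in Mvk and Mvd. Such a match describes letters and says nothing of binding.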

How the data were processed

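Poly-A RNA of 3 DMSO and 3 ZJU-37 libraries of rat OPCs was sequenced by the authors. The submitters' processing notes name HISAT2 2.0.5, StringTie 1.3.3b and featureCounts 1.5.0, and the genome build is not given in the sources used here. The authors deposited 1 table with raw counts per gene and with FPKM values, which they had normalized for gene length and depth. Their group means, fold changes and p-values in the same table were not used. Reads were not processed again.

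Counts were filtered with filterByExpr, normalized by TMM and tested in edgeR 4.0.16 (R 4.3.3) with glmQLFit (robust) and glmQLFTest on all 6 libraries, with Benjamini-Hochberg adjustment over 14670 genes and a threshold of 0.05. FPKM was used only to set levels of different genes side by side. The replicate numbers come from the labels. Across genes, deviations from the group means correlated with r = 0.50, 0.39 and 0.40 for same-numbered pairs and between -0.34 and 0.01 for the others, so the numbers were taken to pair the samples and the fit with a block is given where it changes a call. Within-pair log2 differences used CPM plus 0.5.

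Alternatives were DESeq2 1.42.0, RLE or library-size scaling, no filter, at least 10 counts in every library and leaving out each library. Leaving out replicate 1 of both groups and the ratios to Mbp, tested with scipy 1.17.1, were added after the data had been seen. The members and lists were chosen with earlier results of these data known. Values were given for members called in either fit, for a fixed set of rate-limiting enzymes and regulators, and for the 3 largest changes of each arm. Genes of the further pathway lists were named if called in either fit, up to 4 per direction and list. Some genes are not reported here. The tests were checked on simulated data with log2 changes of 1 and 2, of which 68.6% and 86.0% were recovered. Among the calls 8.72% were false, a share above the adjusted p-value threshold. Log2 changes of less than 1, which all called members but Fa2h had, were not among the simulated sizes. Counts of overlapping genes are uncertain because no strand setting was stated.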

Additional observations from a re-analysis of the deposited data

How the results depend on the processing

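Fa2h and Fads1 stayed under 0.05 in all 13 alternatives, with adjusted p-values of at most 0.0265 and 0.0319. With the replicate block 4705 genes were called (2371 higher, 2334 lower), 21 members, 9 sterol, 7 fatty acid and 4 sphingolipid genes. With DESeq2 14 members and 4 sphingolipid genes were called. RLE scaling, library size alone and no filter each gave 2 sphingolipid genes. Leaving out 1 library gave 1306 to 1927 genes, 3 to 7 members, 1 to 4 sterol, 1 to 4 fatty acid and 1 to 2 sphingolipid genes, and fatty acid medians of 0.13 to 0.22. The lowest member count, 3, came without ZJU-37 replicate 3. The sterol count was 1 without ZJU-37 replicate 2 or 3 and 2 without DMSO replicate 2 or 3, and the sterol median ran from -0.21 to -0.07. The fatty acid count was 4 without ZJU-37 replicate 2 and 1 without ZJU-37 replicate 3, and it was 1 without replicate 1 of both groups. The sphingolipid count was 2 without DMSO replicate 3 or ZJU-37 replicate 2.

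Signs turned only for genes near 0 that were never called. Without replicate 1 of both groups the log2 fold changes were 0.034 for Degs1, 0.031 for Msmo1, 0.00083 for Sqle and 0.020 for Srebf2. With library size alone they were 0.0085 for Msmo1, 0.0019 for Sqle and 0.019 for Srebf2. Leaving out 1 library gave -0.0332 to 0.220 for Fasn, -0.0777 to 0.033 for Msmo1, -0.0644 to 0.029 for Sqle and -0.0508 to 0.062 for Srebf2. The cause was not tested. The other values kept their direction under the alternatives run. No member call was lost with the block. All tested members had at least 114 counts in every library, far above the 3 counts taken as the limit of detection.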
